A study of Mus musculus with 12 samples.

Results

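A panel of 40 genes for DNA damage signalling and DNA strand-break repair was followed through doxorubicin treatment of H9c2 cells. The genes were taken by symbol, for their known roles in repair, from the 54345 genes listed, and all 40 were found and had reads in every library. H9c2 is a cardiomyoblast line from heart muscle tissue, which the study describes as rat, whereas the samples are labelled as mouse and the reads were assigned to mouse genes. Poly(A) RNA was sequenced in 12 libraries, 3 in each of 4 groups, after 6 h. The Unt cells were untreated, the DOX cells received the anthracycline doxorubicin, the D_DXZ cells received doxorubicin with dexrazoxane (DXZ), a clinical cardioprotectant, and the D_MgHCF cells received doxorubicin with magnesium hexacyanoferrate nanocatalysts (MgHCF NCs). All groups are the same wild-type line, and no group received DXZ or MgHCF without doxorubicin. The doses in the sequenced cells are not given in the sources used here. The labels number the replicates but do not say that they came from separate cultures, so p-values measure the spread between these libraries.

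Cells answer broken DNA in steps. The Mre11a-Rad50-Nbn complex binds the ends, the kinases Atm and Atr signal, and Chek1 and Chek2 carry the signal to the cell cycle. Around a break, the histone H2afx is phosphorylated, Mdc1 binds it, and the ubiquitin ligases Rnf8 and Rnf168 mark the chromatin so that Brca1 with Bard1 or Trp53bp1 with Rif1 can gather there. The break is then either copied from an intact template by homologous recombination, which needs a replicated chromosome, or closed directly by end joining, in which the Ku proteins Xrcc5 and Xrcc6 hold the ends for Prkdc, Xrcc4 and Lig4. Damaged bases and single-strand breaks are handled by glycosylases, Apex1, Xrcc1, Lig3 and the poly(ADP-ribose) polymerases Parp1 and Parp2. Doxorubicin traps type II topoisomerases on DNA and thereby leaves strand breaks, and dexrazoxane binds iron and inhibits the same enzymes.

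Levels are FPKM, the reads of a gene per kilobase of its length after scaling for library size. Each library held between 16626514 and 19365119 reads on genes, and the 480 member values rest on 20 to 7993 reads each, with a median of 478 and 30 values under 100 reads. A gene was called higher or lower when its Benjamini-Hochberg adjusted p in limma was under 0.05 over the 25044 genes tested. Fold changes were computed on log2(FPKM + 1), a scale on which low genes change less than their FPKM ratio. The deposited values are scaled so that the typical gene is level between libraries, with a median log2 fold change in DOX vs Unt of 0.02 over 12434 genes with FPKM of at least 1 in 3 libraries. TPM scaling moved that median to -1.18 and scaling by summed reads to -0.68, so every direction below is relative to the typical gene unless it held under all 5 scalings tried. Of 10 muscle and cardiac markers, 2 (Des and Gata4) had a mean FPKM of at least 1 in Unt, and Myod1, Myog and Myf5 were at 0 in the Unt libraries. The summed FPKM of the 10 was 12.3 to 13.4 in Unt and 16.8 to 28.1 in D_MgHCF but 4.12 to 6.64 in DOX and 3.79 to 5.62 in D_DXZ, and whether this bears on the results was not tested. Most of that sum was Gata4, with means of 10.3 in Unt, 3.35 in DOX, 2.93 in D_DXZ and 19.2 in D_MgHCF. Des and Mef2c were lower in D_MgHCF (0.861 and 0.693) than in Unt (1.46 and 0.933), and Tnnt2 was higher in DOX (0.903) than in Unt (0.133). In bulk RNA, fewer cells of a type and less RNA per cell cannot be told apart. Replicates correlated at 0.9895 or more in Unt, DOX and D_DXZ and at 0.942 to 0.984 in D_MgHCF, whose libraries differed most.

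In untreated cells, the histone gene H2afx had the highest level of the panel, at 64.5 ± 5.03 FPKM (mean ± SD, n = 3). Xrcc6 followed at 40.9 ± 1.94, Parp1 at 32.0 ± 1.71 and Mdc1 at 25.9 ± 0.129 FPKM. The lowest were Atr at 1.66 ± 0.311, Lig4 at 1.79 ± 0.192 and Palb2 at 1.94 ± 0.035 FPKM, with Lig4 overlapping both others between libraries. These levels are per length of the mouse gene model, and how well reads of these cells match each mouse gene was not tested.

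Most of the panel was lower after doxorubicin. Of the 40 genes, 22 were lower and 6 higher in DOX vs Unt, whereas of all genes tested 19.9% were lower and 18.6% higher. Of the 12434 genes with FPKM of at least 1 in 3 libraries, 4157 were lower and 4338 higher. The median log2 fold change of the panel was -0.57, beside 0.00 over all genes tested, and single genes ranged from -2.22 for Rnf168 to 1.74 for Parp1. Break sensing and chromatin signalling had 8 of its 9 genes lower and 1 higher, and homologous recombination had 9 of 13 lower and none higher. End joining had 2 of 5 genes higher and none lower in the deposited FPKM, but 0 higher and 3 lower (Prkdc, Xrcc6 and Lig4) under TPM scaling and under summed reads. Under all 5 scalings (the deposited FPKM, TPM, FPKM over summed reads, quantile normalization and voom on reads recovered from the FPKM), 14 genes were called lower, namely Nbn, Mdc1, H2afx, Rnf8, Rnf168, Rif1, Brca1, Brca2, Bard1, Xrcc2, Blm, Exo1, Rbbp8 and Ung, and 1 gene, Parp1, was called higher. The all-gene count for that rule was not made, but it cannot exceed 4340 lower and 1111 higher of 25044. Those are the smallest counts under any 1 scaling. Of the other 8 falls, Chek1, Trp53bp1, Rad54l, Xrcc3, Ogg1, Lig3 and Ercc4 were not called under quantile normalization and Rad50 not in voom. The other 5 rises were of Atm, Mre11a, Xrcc5, Xrcc4 and Ercc1, and all 5 had a negative log2 fold change under TPM scaling while staying above the median gene of every scaling. Of these, Atm, Mre11a and Ercc1 were called lower under TPM scaling, and Atm and Mre11a also under summed reads. TPM and summed reads rescale each library by a constant, and voom kept the deposited scaling. Apart from quantile normalization, the side of the median is therefore largely set in advance and is not separate support.

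**Figure D1:**
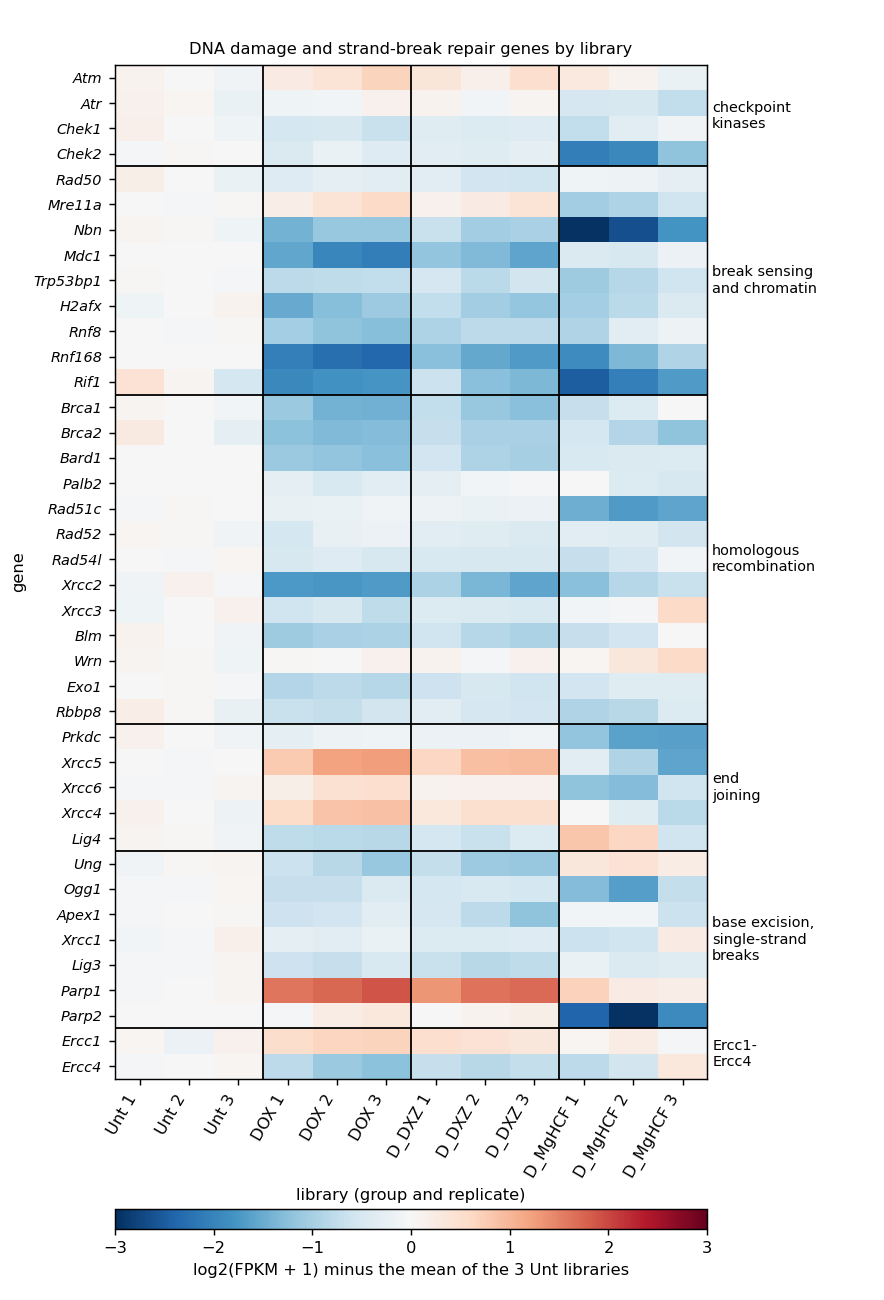
Heat map of the 40 genes (rows, grouped by role) in the 12 libraries (columns, 3 per group), coloured by log2(FPKM + 1) minus the mean of the 3 Unt libraries. Break sensing and recombination genes are mostly blue (lower) in all DOX and D_DXZ libraries, Parp1 and Xrcc5 are red (higher) there, and in D_MgHCF the lowest genes are Nbn, Parp2 and Rif1.

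**Figure D2:**
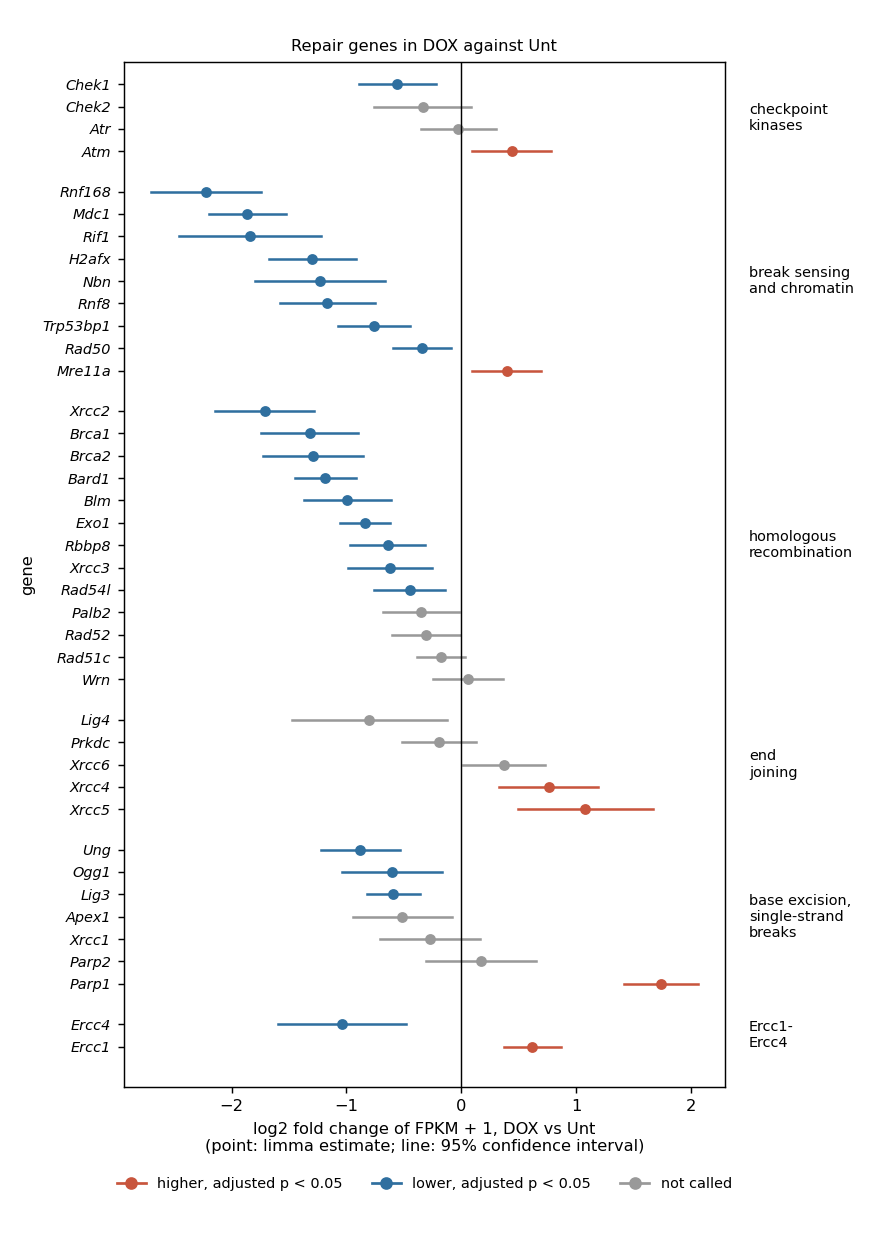
Log2 fold change of FPKM + 1 in DOX vs Unt (x axis) for each gene (y axis, by role), with points for limma estimates, lines for 95% confidence intervals and colours for the call. The estimates run from -2.22 for Rnf168 to 1.74 for Parp1, with 22 genes called lower and 6 higher.

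Promoter sequences are shown because the recombination and break sensing genes mostly moved one way in DOX. RefSeq start sites on the mouse build GRCm38.p6 gave windows of 250 bases before the start for 31 of the 40 genes. No window was used for the other 9, Rad50, Nbn, H2afx, Rif1, Xrcc2, Wrn, Exo1, Rbbp8 and Prkdc. Most of these are themselves break sensing or recombination genes, and the counts below leave them out. These windows are mouse reference sequence and were not read from H9c2 cells. An E2F word (TTTCCCGC, TTTCGCGC, TTTGCCGC or TTTGGCGC, on either strand), the core of the element through which E2F factors drive S-phase genes, was found in 5 of 31 member promoters (16.1%) and in 2.16% of 27025 genes. The 5 were Mdc1, Brca2 and Bard1, of the 15 with a window that were lower in DOX, and Chek2 and Xrcc6, of the 10 not called there, with 0 of the 6 higher genes. The CCAAT box was found in 14 of 31 (45.2%; 37.5% of all genes) and the GC box GGGCGG in 22 of 31 (71.0%; 35.4% of all genes). The sequences shown, in the direction of transcription, are the 3 promoters of genes lower in DOX that hold an E2F word, then that of Rnf168, with the largest fall, and that of Parp1, with the largest rise. They lie at chr17:35841248-35841497, chr5:150522371-150522620, chr1:71102973-71103222, chr16:32277211-32277460 and chr1:180568641-180568890, on the plus strand except for Bard1, and capitals mark matches to any of the 3 motifs, with no shared bases between matches in these windows.
Mdc1: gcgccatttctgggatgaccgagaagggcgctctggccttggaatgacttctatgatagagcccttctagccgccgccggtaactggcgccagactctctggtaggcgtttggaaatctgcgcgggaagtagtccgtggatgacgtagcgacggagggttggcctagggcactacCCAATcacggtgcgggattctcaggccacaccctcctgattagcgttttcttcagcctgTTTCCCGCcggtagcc
Brca2: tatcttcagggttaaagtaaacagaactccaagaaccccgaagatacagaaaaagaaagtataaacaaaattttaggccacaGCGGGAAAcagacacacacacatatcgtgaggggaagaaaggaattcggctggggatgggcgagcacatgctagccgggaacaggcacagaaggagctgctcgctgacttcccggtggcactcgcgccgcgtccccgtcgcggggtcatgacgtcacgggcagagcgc
Bard1: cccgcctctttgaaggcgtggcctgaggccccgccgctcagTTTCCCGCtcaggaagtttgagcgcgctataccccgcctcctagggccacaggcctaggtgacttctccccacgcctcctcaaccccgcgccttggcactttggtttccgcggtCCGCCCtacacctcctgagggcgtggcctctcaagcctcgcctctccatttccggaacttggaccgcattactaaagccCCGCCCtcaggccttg
Rnf168: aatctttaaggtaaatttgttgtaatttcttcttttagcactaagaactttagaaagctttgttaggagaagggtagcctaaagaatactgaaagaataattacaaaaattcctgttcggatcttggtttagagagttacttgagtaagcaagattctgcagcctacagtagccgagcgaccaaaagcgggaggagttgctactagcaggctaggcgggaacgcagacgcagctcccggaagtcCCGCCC
Parp1: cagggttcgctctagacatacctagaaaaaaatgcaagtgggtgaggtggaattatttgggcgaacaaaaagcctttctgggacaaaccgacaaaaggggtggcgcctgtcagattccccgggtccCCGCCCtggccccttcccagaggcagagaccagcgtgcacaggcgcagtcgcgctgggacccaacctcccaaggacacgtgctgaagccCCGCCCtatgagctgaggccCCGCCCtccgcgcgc
Mdc1 has its E2F word close to the start and a CCAAT box upstream, and Brca2 has an E2F word in the reverse direction. Bard1 has an E2F word far upstream and GC boxes nearer the start. Rnf168 and Parp1 hold GC boxes and no E2F word in these windows. A match is a match of letters and says nothing of binding.

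With dexrazoxane added to doxorubicin, Rnf168, Mdc1 and Xrcc2 had the most negative log2 fold changes of the panel against Unt and Parp1 the most positive. Against Unt, 20 of 40 genes were lower and 3 higher in D_DXZ, with 18.0% of all genes lower and 15.9% higher, and a median log2 fold change of -0.49. Of the 12434 genes with FPKM of at least 1 in 3 libraries, 3909 were lower and 3761 higher. The 3 higher genes were Parp1 (1.55), Xrcc5 (0.83) and Ercc1 (0.42). In D_DXZ vs DOX, limma called 0 of 40 genes and 0 of all genes tested at the adjusted threshold. At an unadjusted p under 0.05, 5 of the 40 were called, all of them higher in D_DXZ (all genes: 4.56% higher, 4.97% lower). They were Rif1, Rnf168, Mdc1, Bard1 and Exo1, with log2 fold changes of 0.76, 0.72, 0.50, 0.35 and 0.27. The lowest adjusted p among the 40 was 0.37, and the widest of these 5 intervals, that of Rif1, ran from 0.14 to 1.38. A p above the threshold does not show that the genes were equal in both groups.

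In D_MgHCF vs DOX, 13 genes were higher and 13 lower. Of all genes tested, 31.4% were higher and 20.1% lower, so the share of higher genes in the panel was near that of all genes. Of the 12434 genes with FPKM of at least 1 in 3 libraries, 4233 were higher and 4734 lower. Beside these expressed genes, neither count of the panel stood out. The panel had a median log2 fold change of 0.04. The 13 higher genes were Mdc1, H2afx, Rnf8, Rnf168, Brca1, Bard1, Xrcc2, Xrcc3, Blm, Exo1, Lig4, Ung and Ercc4. The 13 lower genes were Atr, Chek2, Mre11a, Nbn, Rad51c, Prkdc, Xrcc5, Xrcc6, Xrcc4, Ogg1, Parp1, Parp2 and Ercc1. Called under all 5 scalings were 7 of the rises (Mdc1, H2afx, Brca1, Bard1, Xrcc3, Lig4 and Ung) and 4 of the falls (Rad51c, Prkdc, Xrcc5 and Parp2). The all-gene count for that rule was not made, but it cannot exceed 4626 higher and 1691 lower of 25044. Those are the smallest counts under any 1 scaling. In a fit of these 2 groups alone, H2afx, Rnf8, Rnf168, Blm, Exo1, Lig4 and Ercc4 were no longer called higher. Atr and Ogg1 were no longer called lower there. All 13 rises were above the median gene, and all 13 falls below it, under each of the 5 scalings, although the values of Atr, Ogg1 and Ercc1 were positive under TPM scaling. The side of the median is largely set in advance here too, apart from quantile normalization. Leaving out D_MgHCF replicate 3 gave 12 higher and 14 lower, and leaving out replicate 1 gave 15 and 13.

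**Figure D3:**
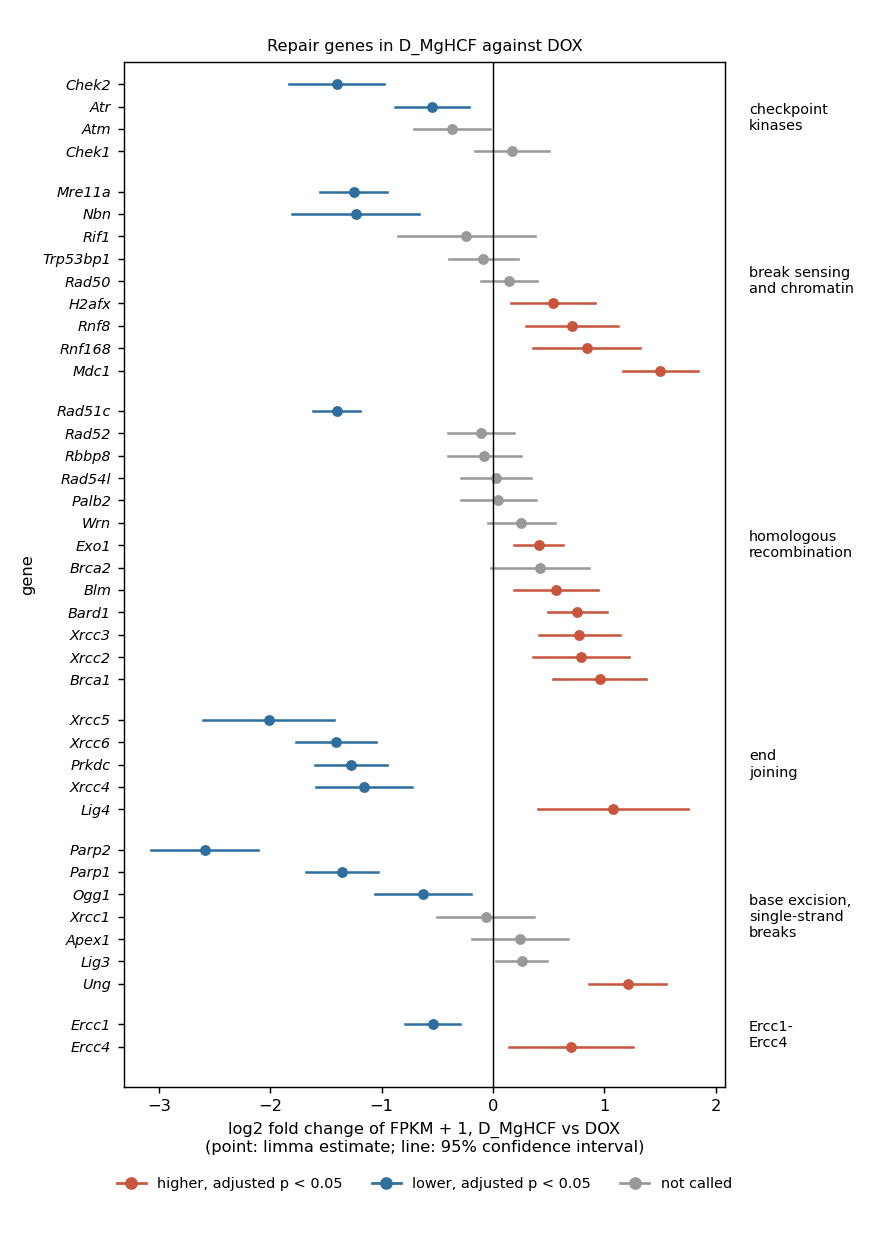
Log2 fold change of FPKM + 1 in D_MgHCF vs DOX (x axis) for each gene (y axis, by role), with points for limma estimates, lines for 95% confidence intervals and colours for the call. The estimates run from -2.59 for Parp2 to 1.50 for Mdc1, and 4 of the 5 end joining genes lie below 0.

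Set against untreated cells, D_MgHCF had 22 of 40 genes lower and 0 higher, with 15.7% of all genes lower and 24.3% higher. Of the 12434 genes with FPKM of at least 1 in 3 libraries, 3509 were lower and 2820 higher. At an unadjusted p under 0.05, limma had 26 lower (18.5% of all genes) and 2 higher (30.7%), Wrn (0.32) and Parp1 (0.38). Under all 5 scalings, 20 of the 40 genes were called lower. The all-gene count for that rule was not made, but it cannot exceed 3941 of 25044, the smallest count under any 1 scaling. Below the median gene of every scaling were 33 of the 40. Of the rescalings, only quantile normalization could readily move a gene across that median. DOX and D_MgHCF were compared with the same 3 Unt libraries, so their counts are not independent. Without D_MgHCF replicate 3, 29 genes were lower and 2 higher than in Unt.

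**Figure D4:**
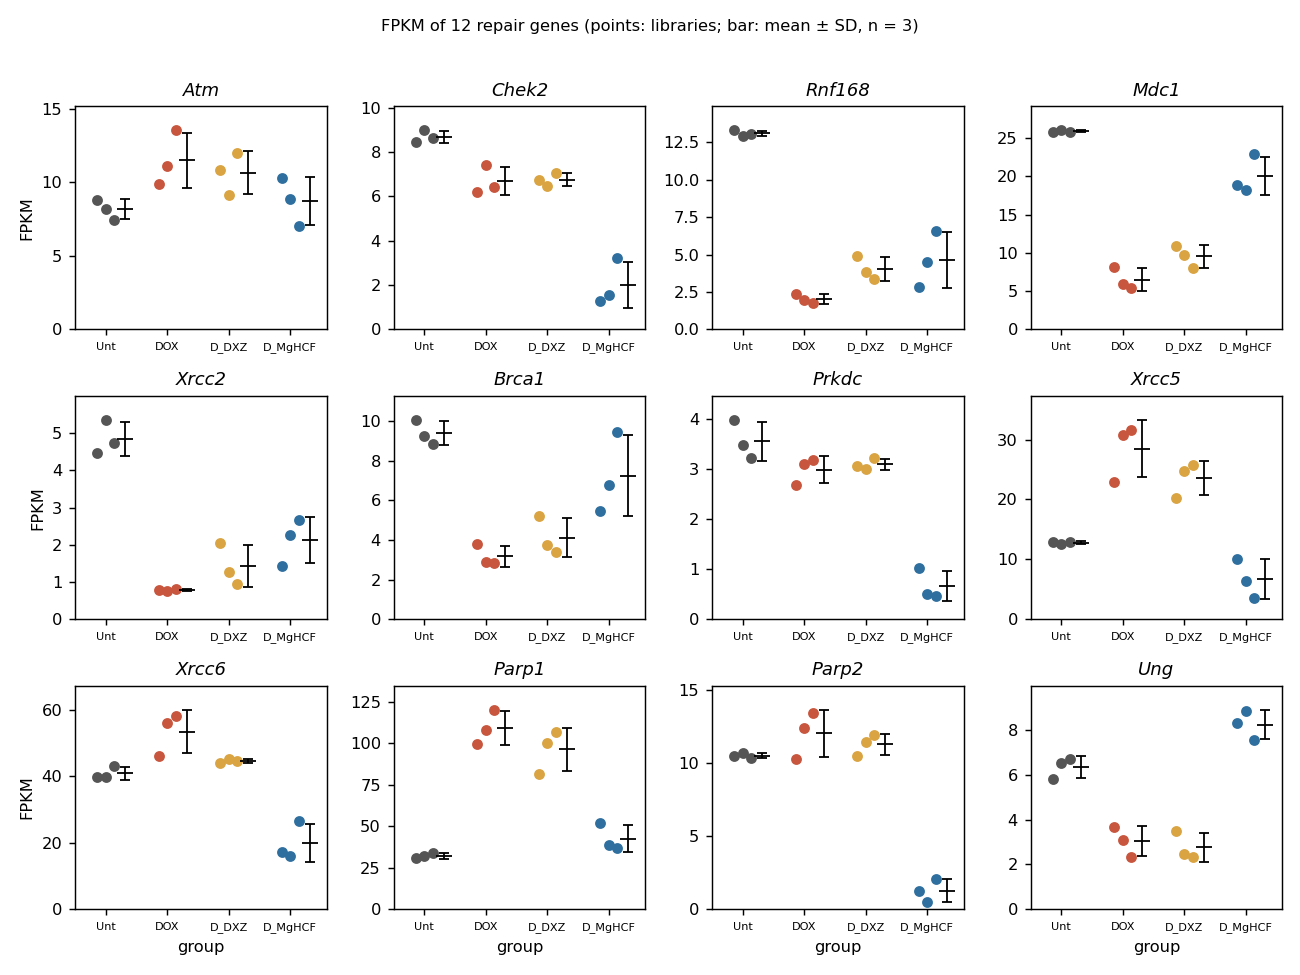
FPKM (y axis, from 0) of 12 of the genes in the 4 groups (x axis), with a point for each library and a black bar for the mean ± SD (n = 3). Parp1 and Xrcc5 are highest in DOX and D_DXZ, Rnf168, Mdc1, Xrcc2 and Brca1 are highest in Unt apart from 1 Brca1 library of D_MgHCF, and Chek2, Prkdc, Xrcc6 and Parp2 are lowest in D_MgHCF.

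Among the checkpoint kinases, which gather break signals and halt the cell cycle, Atm rose and Chek1 fell in DOX in the deposited FPKM. Chek2 and Atr were lower in D_MgHCF than in DOX. Atm (chr9:53439149-53536740, mouse build GRCm38, as are all positions given here), the kinase recruited to double-strand breaks, had FPKM of 8.83, 8.21 and 7.47 in the Unt libraries, 9.88, 11.1 and 13.5 in DOX, 10.9, 9.12 and 12.0 in D_DXZ and 10.3, 8.86 and 7.01 in D_MgHCF. The DOX libraries lay above the Unt libraries without overlap, and those of D_MgHCF overlapped both groups. Its rise in DOX was 1.41-fold (log2 fold change 0.44 ± 0.15 (SE), adjusted p = 0.045). The call was lost when any 1 of 7 libraries was left out or no filter was used. Atm was instead called lower in DOX under TPM scaling (-0.85) and under scaling by summed reads (-0.42). In D_MgHCF vs DOX Atm was not called (log2 fold change -0.37 ± 0.15 (SE), adjusted p = 0.070). Atr (chr9:95857597-95951781), which responds to single-stranded DNA at stalled forks, had FPKM of 1.90, 1.76 and 1.31 in the Unt libraries, 1.43, 1.49 and 1.90 in DOX, 1.85, 1.50 and 1.78 in D_DXZ and 0.878, 0.899 and 0.574 in D_MgHCF. All D_MgHCF libraries were below all others for Atr, although these levels are low and an antisense gene, Gm16794, overlaps 9737 bases of the genomic span of Atr. All overlaps given here are of genomic spans, introns included. D_MgHCF vs DOX gave log2 fold change -0.55 ± 0.15 (SE), adjusted p = 0.011, and DOX vs Unt gave log2 fold change -0.03 ± 0.15 (SE), adjusted p = 0.96.

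Chek1 (chr9:36708482-36727065), the effector kinase downstream of Atr, had FPKM of 7.92, 7.00 and 6.36 in the Unt libraries, 4.60, 4.76 and 4.10 in DOX, 5.23, 5.05 and 5.14 in D_DXZ and 3.81, 5.53 and 6.44 in D_MgHCF. Every DOX and D_DXZ library was below every Unt library, whereas D_MgHCF ran from below the DOX range into the Unt range. The fall in DOX was 1.58-fold (log2 fold change -0.56 ± 0.15 (SE), adjusted p = 0.012), a call that was lost without Unt replicate 1. D_DXZ vs Unt gave log2 fold change -0.39 ± 0.15 (SE), adjusted p = 0.069 and D_MgHCF vs DOX gave log2 fold change 0.17 ± 0.15 (SE), adjusted p = 0.37. Chek2 (chr5:110839979-110874145), the effector downstream of Atm, had FPKM of 8.46, 8.98 and 8.62 in the Unt libraries, 6.21, 7.43 and 6.42 in DOX, 6.73, 6.48 and 7.06 in D_DXZ and 1.28, 1.54 and 3.20 in D_MgHCF. The Unt libraries were highest, DOX and D_DXZ overlapped, and D_MgHCF was far lower in all 3 libraries. Chek2 was not called in DOX vs Unt (log2 fold change -0.34 ± 0.19 (SE), adjusted p = 0.22) but was 3.33-fold lower in D_MgHCF than in DOX (log2 fold change -1.40 ± 0.19 (SE), adjusted p = 1.6e-04).

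Of the 9 break sensing genes, 8 fell in DOX, from the end binders Rad50 and Nbn to the ubiquitin ligases Rnf8 and Rnf168, and Mre11a rose in the deposited FPKM. In the end-binding complex, Rad50 (chr11:53649519-53707319), its zinc-hook ATPase, had FPKM of 15.5, 13.8 and 11.7 in the Unt libraries, 10.1, 11.0 and 10.5 in DOX, 10.6, 8.80 and 8.61 in D_DXZ and 12.4, 12.1 and 10.9 in D_MgHCF. The DOX libraries were all below the Unt libraries but by little, and D_DXZ was lowest on average. The fall in DOX was 1.30-fold (log2 fold change -0.34 ± 0.11 (SE), adjusted p = 0.036), lost when any 1 of the Unt replicates 1 and 2 or the DOX replicates was left out. Mre11a (chr9:14784654-14837123), the nuclease, went the other way, at 12.9, 12.4 and 13.1 in the Unt libraries, 14.8, 17.3 and 19.6 in DOX, 14.1, 15.3 and 17.3 in D_DXZ and 5.66, 6.24 and 8.14 in D_MgHCF. Its DOX libraries were above Unt and its D_MgHCF libraries below every other library. Mre11a was 1.35-fold higher in DOX (log2 fold change 0.40 ± 0.14 (SE), adjusted p = 0.040), but called lower under TPM scaling (-0.92) and summed reads (-0.49). The call was also lost without any 1 of 7 libraries, with no filter, under quantile normalization and in voom. In D_MgHCF it was 2.58-fold lower than in DOX (log2 fold change -1.25 ± 0.14 (SE), adjusted p = 3.8e-05). Nbn, the adaptor that brings Atm to the complex, fell in both steps, with 10.5 to 12.3 FPKM in Unt, 3.69 to 4.71 in DOX and 0.601 to 2.64 in D_MgHCF, beside 5.12 to 6.94 in D_DXZ. Its log2 fold changes were -1.23 in DOX vs Unt and -1.23 in D_MgHCF vs DOX (adjusted p = 0.0027 and 0.0024). In D_MgHCF vs DOX, Nbn was not called under TPM scaling or summed reads, and Mre11a not under TPM scaling. Within this complex, Mre11a was therefore called higher and Rad50 and Nbn lower in DOX in the deposited FPKM. Under TPM scaling and summed reads all of them were called lower.

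Mdc1 (chr17:35841515-35859670), the scaffold that reads phosphorylated H2afx, had FPKM of 25.8, 26.0 and 25.8 in the Unt libraries, 8.14, 5.94 and 5.34 in DOX, 10.9, 9.71 and 7.95 in D_DXZ and 18.9, 18.2 and 22.9 in D_MgHCF. DOX and D_DXZ overlapped, D_MgHCF lay between them and Unt without overlap, and the 3 Unt libraries were almost equal. The fall in DOX was 4.00-fold (log2 fold change -1.86 ± 0.15 (SE), adjusted p = 1.3e-05), and D_MgHCF was 3.09-fold above DOX (log2 fold change 1.50 ± 0.15 (SE), adjusted p = 2.5e-05). Against Unt, D_MgHCF was not called (log2 fold change -0.36 ± 0.15 (SE), adjusted p = 0.080). Rnf168 (chr16:32277459-32301434), the ubiquitin ligase that spreads the mark, had FPKM of 13.3, 13.0 and 13.1 in the Unt libraries, 2.39, 1.96 and 1.76 in DOX, 4.90, 3.85 and 3.37 in D_DXZ and 2.83, 4.53 and 6.56 in D_MgHCF. All DOX libraries were below all others, and no treated library came near the Unt range. Rnf168 had the largest fall of the panel in DOX, 6.44-fold (log2 fold change -2.22 ± 0.22 (SE), adjusted p = 2.5e-05), and D_MgHCF was 2.28-fold above DOX (log2 fold change 0.84 ± 0.22 (SE), adjusted p = 0.0080), a rise not called under quantile normalization. Rnf8, the ligase that acts before it, moved the same way, with 2.69 to 2.83 FPKM in Unt, 0.544 to 0.871 in DOX and 1.02 to 2.37 in D_MgHCF, at as few as 20 reads a library. Rnf8 shares 1544 bases of identical transcript with the read-through gene Gm28043, so its reads may be divided between the 2 genes.

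H2afx, the histone whose phosphorylation marks breaks, had 59.1 to 69.1 FPKM in Unt, 21.8 to 29.6 in DOX and 31.2 to 47.5 in D_MgHCF, beside 28.2 to 38.3 in D_DXZ. Its log2 fold changes were -1.30 and, for D_MgHCF vs DOX, 0.54, the second call being lost without DOX replicate 1, DOX replicate 2 or D_MgHCF replicate 3. That call was also lost in a fit of DOX and D_MgHCF alone. The D_MgHCF libraries lay between DOX and Unt without overlap. Trp53bp1 (chr2:121193281-121271407), which holds back end resection, had FPKM of 4.62, 4.42 and 4.38 in the Unt libraries, 2.19, 2.21 and 2.29 in DOX, 2.85, 2.14 and 2.76 in D_DXZ and 1.59, 2.00 and 2.63 in D_MgHCF. The Unt libraries were above all treated libraries, which overlapped. The fall in DOX was 2.01-fold (log2 fold change -0.76 ± 0.14 (SE), adjusted p = 0.0013), and D_MgHCF did not pass against DOX (log2 fold change -0.08 ± 0.14 (SE), adjusted p = 0.64). Trp53bp1 overlaps Tubgcp4 on the opposite strand over 5490 genomic bases, and their longest identical transcript stretch is 1877 bases. Whether counting used strand is not given in the sources used here, so reads of both genes there cannot be told apart. Rif1, its partner, had 6.78 to 14.2 FPKM in Unt and 1.96 to 2.27 in DOX, a fall of log2 fold change -1.84, with 3.42 to 6.16 in D_DXZ and 1.02 to 2.45 in D_MgHCF.

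Of the homologous recombination genes, 9 of 13 fell in DOX and none rose (19.9% and 18.6% of all genes). In D_MgHCF vs DOX 6 of the 13 were higher and 1 lower (31.4% and 20.1% of all genes). There, TPM scaling and summed reads each gave 12 higher and 1 lower, quantile normalization 3 and 2, and voom 7 and 1. Brca1 (chr11:101488764-101551955), which with Bard1 steers breaks towards resection, had FPKM of 10.1, 9.28 and 8.86 in the Unt libraries, 3.79, 2.90 and 2.86 in DOX, 5.23, 3.76 and 3.37 in D_DXZ and 5.46, 6.79 and 9.48 in D_MgHCF. DOX was below Unt without overlap, D_DXZ overlapped DOX, and the highest D_MgHCF library was within the Unt range. Brca1 was 2.96-fold lower in DOX (log2 fold change -1.32 ± 0.19 (SE), adjusted p = 2.4e-04) and 2.28-fold higher in D_MgHCF than in DOX (log2 fold change 0.96 ± 0.19 (SE), adjusted p = 0.0018), and D_MgHCF was not called against Unt (log2 fold change -0.36 ± 0.19 (SE), adjusted p = 0.15). Brca2 (chr5:150522630-150570329), which loads the strand-exchange recombinase, had FPKM of 3.50, 2.74 and 2.11 in the Unt libraries, 0.589, 0.491 and 0.513 in DOX, 1.31, 0.895 and 0.900 in D_DXZ and 1.61, 1.03 and 0.633 in D_MgHCF. All DOX libraries were below all others and all Unt libraries above, at low levels throughout. Its fall in DOX was 5.24-fold (log2 fold change -1.29 ± 0.20 (SE), adjusted p = 3.7e-04), and D_MgHCF vs DOX gave log2 fold change 0.42 ± 0.20 (SE), adjusted p = 0.097, which passed under TPM scaling, summed reads and voom on the recovered reads.

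Xrcc2 (chr5:25689812-25705825), a recombinase paralogue, had FPKM of 4.47, 5.35 and 4.73 in the Unt libraries, 0.783, 0.747 and 0.812 in DOX, 2.04, 1.27 and 0.948 in D_DXZ and 1.44, 2.25 and 2.66 in D_MgHCF. Unt was highest and DOX lowest without overlap, and D_DXZ and D_MgHCF overlapped between them. It had the largest fall of the recombination genes, 6.21-fold (log2 fold change -1.71 ± 0.19 (SE), adjusted p = 5.8e-05), and D_MgHCF was 2.71-fold above DOX (log2 fold change 0.79 ± 0.19 (SE), adjusted p = 0.0066), which was not called under quantile normalization. Rad51c (chr11:87376645-87404954), another paralogue, had FPKM of 5.68, 6.01 and 5.75 in the Unt libraries, 4.87, 4.92 and 5.28 in DOX, 5.13, 4.93 and 5.02 in D_DXZ and 1.48, 1.09 and 1.27 in D_MgHCF. DOX and D_DXZ lay just under Unt and D_MgHCF far below all of them. Rad51c was not called in DOX vs Unt (log2 fold change -0.18 ± 0.09 (SE), adjusted p = 0.19) and was 3.92-fold lower in D_MgHCF than in DOX (log2 fold change -1.40 ± 0.09 (SE), adjusted p = 3.8e-06), the only 1 of the 13 recombination genes that fell there.

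Of the other recombination genes, Bard1, Blm, Exo1, Xrcc3, Rbbp8 and Rad54l were also lower in DOX than in Unt, with log2 fold changes from -1.19 (Bard1) to -0.45 (Rad54l). Bard1, the partner of Brca1, had even libraries, at 5.68, 5.71 and 5.71 FPKM in Unt, 2.10, 1.93 and 1.82 in DOX and 3.89, 4.00 and 4.06 in D_MgHCF. These 3 groups did not overlap, and D_MgHCF was higher than DOX by 0.76 (adjusted p = 4.0e-04). The RecQ helicase gene Blm and the resection nuclease gene Exo1 also rose in D_MgHCF vs DOX (0.57 and 0.41), as did Xrcc3 (0.78), but none of these except Xrcc3 was called under quantile normalization. Palb2, Rad52 and Wrn were called in neither of these comparisons, with log2 fold changes in DOX vs Unt of -0.35, -0.31 and 0.06. Xrcc3 overlaps Klc1 on the opposite strand over 4653 bases, and the highest FPKM of Klc1 was 51.5. Also on opposite strands, Rad54l overlaps Lrrc41 over 2780 bases (highest FPKM 19.0) and Blm overlaps Ndufab1-ps over 468 bases (65.8).

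Of the 5 end joining genes, 4 were lower and 1 higher in D_MgHCF than in DOX (20.1% and 31.4% of all genes). Summed reads, quantile normalization and voom gave the same counts. Under TPM scaling Prkdc and Xrcc5 were called lower and Lig4 higher there, and Xrcc6 and Xrcc4 were not called. In DOX vs Unt, Xrcc5 and Xrcc4 rose and none fell in the deposited FPKM, whereas quantile normalization called 1 higher (Xrcc4) and 1 lower (Xrcc6), voom 2 higher and 1 lower (Lig4), and both TPM and summed reads 3 lower and 0 higher. Xrcc5 (chr1:72307421-72394952), the larger Ku subunit, had FPKM of 12.9, 12.6 and 12.9 in the Unt libraries, 22.9, 30.8 and 31.6 in DOX, 20.3, 24.7 and 25.8 in D_DXZ and 10.1, 6.43 and 3.57 in D_MgHCF. DOX and D_DXZ overlapped above the even Unt libraries, and D_MgHCF lay below Unt in all 3 libraries but varied widely. Xrcc5 was 2.22-fold higher in DOX (log2 fold change 1.08 ± 0.26 (SE), adjusted p = 0.0071), with a negative value under TPM scaling (-0.22), and 4.25-fold lower in D_MgHCF than in DOX (log2 fold change -2.01 ± 0.26 (SE), adjusted p = 1.2e-04). Xrcc6 (chr15:81987835-82040085), the other Ku subunit, had FPKM of 39.9, 39.8 and 43.2 in the Unt libraries, 46.1, 56.1 and 58.4 in DOX, 43.9, 45.1 and 44.6 in D_DXZ and 17.2, 16.1 and 26.5 in D_MgHCF. DOX was highest and D_MgHCF lowest without overlap, though the gene was not called in DOX vs Unt (log2 fold change 0.37 ± 0.16 (SE), adjusted p = 0.10) and its value there was negative under 3 scalings. It was 2.69-fold lower in D_MgHCF than in DOX (log2 fold change -1.41 ± 0.16 (SE), adjusted p = 5.5e-05). Desi1, on the opposite strand, overlaps 41340 bases of the genomic span of Xrcc6 and reached an FPKM of 49.8. The longest identical transcript stretch of these 2 genes is 346 bases.

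Prkdc (chr16:15637866-15842235), the kinase that Ku recruits, had FPKM of 3.98, 3.48 and 3.22 in the Unt libraries, 2.69, 3.10 and 3.19 in DOX, 3.06, 3.01 and 3.23 in D_DXZ and 1.01, 0.500 and 0.473 in D_MgHCF. The DOX libraries lay just below the Unt libraries, D_DXZ overlapped both, and all D_MgHCF libraries were far lower. DOX vs Unt gave log2 fold change -0.19 ± 0.15 (SE), adjusted p = 0.39, and D_MgHCF was 4.52-fold below DOX (log2 fold change -1.28 ± 0.15 (SE), adjusted p = 5.2e-05). Lig4 (chr8:9969049-9977686), the ligase that seals the ends, had FPKM of 1.96, 1.84 and 1.58 in the Unt libraries, 0.633, 0.599 and 0.565 in DOX, 0.941, 0.763 and 1.09 in D_DXZ and 3.93, 3.27 and 0.830 in D_MgHCF. DOX was lowest of all, and D_MgHCF replicates 1 and 2 were highest while replicate 3 was within the D_DXZ range. Lig4 was not called in DOX vs Unt (log2 fold change -0.80 ± 0.30 (SE), adjusted p = 0.062), but it was called lower there with unadjusted p, a pseudocount of 0.1, a minimum FPKM of 1, only these groups in the fit, TPM, summed reads or voom. In D_MgHCF it was 4.46-fold above DOX (log2 fold change 1.08 ± 0.30 (SE), adjusted p = 0.013), a call lost without D_MgHCF replicate 2 and in a fit of these 2 groups alone. Xrcc4, the scaffold that Lig4 needs, went the other way, with 1.69 to 2.25 FPKM in Unt, 3.36 to 4.49 in DOX and 0.706 to 1.94 in D_MgHCF. Its log2 fold changes were 0.76 in DOX vs Unt and -1.16 in D_MgHCF vs DOX, and the first was negative under TPM scaling (-0.29). Tmem167, on the opposite strand, overlaps 486 bases of Xrcc4 and reached an FPKM of 8.46.

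In base excision and single-strand break repair, Parp1 carried the largest rise of the panel and Parp2 the largest fall with the nanocatalysts. Parp1 (chr1:180568924-180601254), which senses nicks and builds poly(ADP-ribose), had FPKM of 30.5, 31.7 and 33.9 in the Unt libraries, 99.5, 108 and 120.0 in DOX, 81.6, 100.4 and 107 in D_DXZ and 52.0, 38.3 and 37.1 in D_MgHCF. Unt was below every treated library, DOX and D_DXZ overlapped at the top, and D_MgHCF lay between. Parp1 was 3.41-fold higher in DOX (log2 fold change 1.74 ± 0.14 (SE), adjusted p = 1.4e-05), the only member called higher under all 5 scalings, and 2.57-fold lower in D_MgHCF than in DOX (log2 fold change -1.35 ± 0.14 (SE), adjusted p = 3.6e-05), which was not called under TPM or quantile scaling. Its relative Parp2 (chr14:50807841-50821301) had FPKM of 10.5, 10.7 and 10.4 in the Unt libraries, 10.3, 12.4 and 13.4 in DOX, 10.5, 11.5 and 11.9 in D_DXZ and 1.21, 0.476 and 2.08 in D_MgHCF. Unt, DOX and D_DXZ overlapped, and the 3 D_MgHCF libraries were far below all others. DOX vs Unt gave log2 fold change 0.17 ± 0.22 (SE), adjusted p = 0.66, whereas D_MgHCF was 9.60-fold below DOX (log2 fold change -2.59 ± 0.22 (SE), adjusted p = 9.4e-06). Ung (chr5:114130386-114139323), the uracil glycosylase, had FPKM of 5.82, 6.55 and 6.74 in the Unt libraries, 3.69, 3.11 and 2.32 in DOX, 3.51, 2.46 and 2.34 in D_DXZ and 8.35, 8.87 and 7.58 in D_MgHCF. DOX and D_DXZ overlapped below Unt, and D_MgHCF was above all other libraries. It was 2.10-fold lower in DOX (log2 fold change -0.88 ± 0.15 (SE), adjusted p = 9.3e-04) and 2.72-fold higher in D_MgHCF than in DOX (log2 fold change 1.21 ± 0.15 (SE), adjusted p = 1.1e-04).

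Ogg1, the glycosylase for oxidised guanine, was lower in DOX (-0.60) and lower again in D_MgHCF vs DOX (-0.63), the second value turning positive under TPM scaling (0.45) and summed reads (0.20). Its first call was lost without any 1 of 5 libraries and its second without any 1 of 3. Camk1 overlaps Ogg1 on the opposite strand over 945 bases, with a highest FPKM of 30.5, and Tmem55b overlaps Apex1 over 1072 bases (14.7). Lig3, the ligase paired with Xrcc1, had 7.05 to 7.93 FPKM in Unt and 4.17 to 5.08 in DOX, a fall of log2 fold change -0.59 (adjusted p = 9.2e-04). Xrcc1 itself and the endonuclease Apex1 were not called in DOX vs Unt, with log2 fold changes of -0.27 and -0.51, and Apex1 was lower in D_DXZ than in Unt (-0.84, adjusted p = 0.0061). Ercc1 and Ercc4 form a nuclease that cuts at junctions in nucleotide excision and crosslink repair, yet they moved apart. Ercc1 (chr7:19344778-19356524) had FPKM of 3.71, 3.03 and 3.97 in the Unt libraries, 5.61, 6.11 and 6.25 in DOX, 5.44, 5.13 and 4.79 in D_DXZ and 3.73, 4.28 and 3.44 in D_MgHCF. Its DOX libraries were above all others, while Unt and D_MgHCF overlapped. Cd3eap, on the opposite strand, overlaps 511 bases of Ercc1 and reached an FPKM of 24.3, so reads there cannot be told apart. The rise in DOX was 1.68-fold (log2 fold change 0.62 ± 0.11 (SE), adjusted p = 0.0011). Ercc1 was instead called lower there under TPM scaling (-0.57), and under summed reads its value was negative (-0.16) but not called. D_MgHCF vs DOX gave log2 fold change -0.54 ± 0.11 (SE), adjusted p = 0.0023. Ercc4 (chr16:13109684-13150617) had FPKM of 2.70, 2.86 and 3.02 in the Unt libraries, 1.25, 0.788 and 0.642 in DOX, 1.37, 1.16 and 1.35 in D_DXZ and 1.23, 1.65 and 3.77 in D_MgHCF. DOX was below Unt without overlap and D_MgHCF spread over both ranges. The fall in DOX was 3.20-fold (log2 fold change -1.04 ± 0.25 (SE), adjusted p = 0.0066), and the rise in D_MgHCF vs DOX (log2 fold change 0.70 ± 0.25 (SE), adjusted p = 0.039) was lost when any 1 of 9 libraries was left out.

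The groups were also compared library by library, with no model. In 19 of 40 genes all Unt libraries were above all 9 treated libraries (9.85% of all genes tested), and in 1 gene, Parp1, all were below (6.96%). DOX was lowest of all groups in 9 genes, Bard1, Blm, Brca2, Exo1, Lig4, Rnf168, Rnf8, Xrcc2 and Xrcc3 (3.81% of all genes), and highest in 3, Ercc1, Xrcc4 and Xrcc6 (3.55%). D_MgHCF was lowest in 10 genes, Atr, Chek2, Mre11a, Nbn, Ogg1, Parp2, Prkdc, Rad51c, Xrcc5 and Xrcc6 (8.17%), and highest in 1, Ung (16.2%). D_DXZ was neither highest nor lowest without overlap in any of the 40 (0.363% and 1.33% of all genes).

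Compared directly, D_MgHCF had 9 genes higher and 14 lower than D_DXZ (29.4% and 19.0% of all genes). Of the 12434 genes with FPKM of at least 1 in 3 libraries, 3825 were higher and 4476 lower. The largest falls were in Parp2 (-2.51) and Xrcc5 (-1.76), and the largest rises in Ung (1.31) and Mdc1 (1.00). This comparison shares its D_MgHCF libraries with that against DOX and was added after the data were seen. The rises were fewer in a fit of these 2 groups alone (2) and under quantile normalization (4).

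A further 69 repair genes outside the panel were counted by the same rule. In DOX vs Unt, 34 were lower and 12 higher, with a median log2 fold change of -0.44, and among 25 other recombination and crosslink repair genes 16 were lower and 3 higher. Of all genes tested, 19.9% were lower and 18.6% higher there, and of the 12434 genes with FPKM of at least 1 in 3 libraries 4157 and 4338. In D_DXZ vs Unt 37 were lower and 11 higher (18.0% and 15.9% of all genes), and in D_MgHCF vs Unt 26 and 8 (15.7% and 24.3%). In D_DXZ vs DOX none were called. At an unadjusted p under 0.05 (limma), 6 were higher and 2 lower there (4.56% and 4.97%). In D_MgHCF vs DOX 20 were lower and 25 higher (20.1% and 31.4%), beside 4734 and 4233 of the 12434 expressed genes. The largest changes in DOX were those of Fancf, a core subunit of the crosslink repair complex, and Rpa3, a subunit of the single-strand binding protein. Fancf had FPKM of 6.53, 7.06 and 8.03 in Unt and 1.83, 0.599 and 0.460 in DOX, and Rpa3 had 18.9, 17.0 and 17.5 in Unt and 62.7, 82.4 and 75.9 in DOX. Neither pair of groups overlapped, the log2 fold changes were -2.12 and 1.98 (adjusted p = 0.0015 and 2.1e-04), and both were called under all 5 scalings.

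The choice of scaling changed how many of the 40 genes counted as higher or lower. In DOX vs Unt, the deposited FPKM gave 6 higher and 22 lower, TPM 1 and 37, summed reads 1 and 36, quantile normalization 5 and 17, and voom 5 and 22. For D_MgHCF vs DOX the counts were 13 and 13, 27 and 4, 26 and 9, 8 and 14, and 14 and 13 in the same order, while the median of all expressed genes was -0.02, 1.02, 0.67, -0.04 and -0.05. Relative to that median, 27 genes were below and 7 above in all 5 scalings of DOX vs Unt, and 17 were below and 17 above in D_MgHCF vs DOX. These counts are not support from 5 separate scalings, since TPM and summed reads differ from the deposited values by a constant for each library. Voom kept the deposited scaling. Under TPM, 10227 of all genes tested were lower and 1111 higher in DOX vs Unt.

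**Figure D5:**
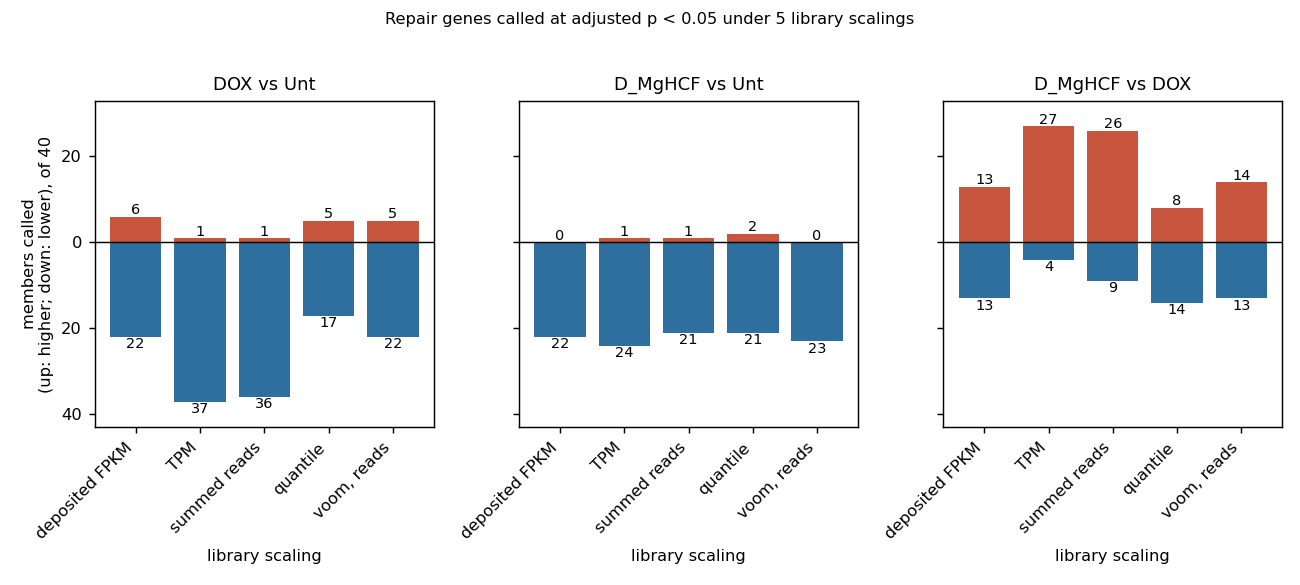
Number of the 40 genes called higher (red, above 0) or lower (blue, below 0) at an adjusted p under 0.05 (y axis) under 5 library scalings (x axis) in 3 comparisons. In DOX vs Unt the lower calls run from 17 to 37, in D_MgHCF vs Unt from 21 to 24, and in D_MgHCF vs DOX from 4 to 14. Voom used the deposited library scaling.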

How the data were processed

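Poly(A) RNA of 12 H9c2 libraries (3 each of Unt, DOX, D_DXZ and D_MgHCF, grouped by the sample labels) was sequenced. The authors deposited gene-level FPKM for all samples in 1 table, and the submitters' processing notes name HISAT2 2.0.5 and the mouse builds GRCm38 and mm10. The counting program, annotation and strand setting are not given in the sources used here. FPKM times gene length gave whole reads (within 0.05) for all values, so depth could be recovered, and the deposited scaling equals a median-ratio factor of those reads.

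The 25044 genes above 0 FPKM in 3 or more libraries entered 1 limma fit (version 3.58.1, R 4.3.3, empirical Bayes with trend) of log2(FPKM + 1) over the 4 groups. P-values were adjusted by the Benjamini-Hochberg method over all 25044 genes, and intervals are 95%. No count model was the main test because the values are FPKM, and voom on the recovered reads was an alternative. Alternatives changed the pseudocount, the filter, the threshold, a replicate block, the groups in the fit, the scaling or left out 1 library. Scaling by summed reads and the comparison of D_MgHCF with D_DXZ were chosen after seeing the data. The script was tested on simulated data.

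The 40 genes, the 69 other repair genes and the marker lists were chosen with earlier results of these data known. Library values are given for 12 preselected genes (Atm, Atr, Chek1, Chek2, Rad50, Trp53bp1, Brca1, Brca2, Prkdc, Xrcc5, Xrcc6 and Parp1) and, within each role, the 2 largest changes in DOX vs Unt and in D_MgHCF vs DOX. Those of Bard1 were added after its values were seen. Of the other repair genes the 2 largest changes in DOX vs Unt are named. Promoters came from RefSeq (GRCm38.p6), and overlaps from the gene coordinates deposited with the FPKM. Shared transcript sequence came from a BLAST search of GENCODE mouse release M21. Summed FPKM of fibroblast markers was 60.9 to 66.6 in Unt and 30.4 to 63.9 in D_MgHCF but 140.2 to 177 in DOX and 108 to 152 in D_DXZ, of macrophage and leukocyte markers 0.888 to 1.11 in Unt against 2.00 to 5.03 in D_MgHCF, 2.89 to 3.60 in DOX and 3.82 to 4.37 in D_DXZ, and of endothelial markers at most 1.08. Nearly all of the macrophage and leukocyte sum was Cd68, with means of 1.03 in Unt, 3.06 in DOX, 4.09 in D_DXZ and 3.26 in D_MgHCF. The part of these cell types in the results was not tested.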

Additional observations from a re-analysis of the deposited data

How the results depend on the processing

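Counts are of the 40 genes, higher and lower in that order. Where only 1 count is given, its side is named and the other side is left out. With a minimum of 2-fold they were 2 and 11 in DOX vs Unt, 1 and 5 in D_DXZ vs Unt, 0 and 9 in D_MgHCF vs Unt, 3 higher in D_MgHCF vs DOX, and 2 and 9 in D_MgHCF vs D_DXZ. Lower by at least 2-fold in D_MgHCF vs DOX were Chek2, Mre11a, Nbn, Rad51c, Prkdc, Xrcc5, Xrcc6, Xrcc4, Parp1 and Parp2. TPM scaling gave 1 and 37, 1 and 37, 1 and 24, 27 and 4, and 26 and 4 in the same comparisons. Scaling by summed reads gave 1 and 36, 1 and 34, 1 and 21, 26 and 9, and 22 and 8. Quantile normalization gave 5 and 17, 4 and 12, 2 and 21, 8 and 14, and 4 and 16. Unadjusted p gave 2 and 26 in D_MgHCF vs Unt and 5 and 0 in D_DXZ vs DOX. Fitting only the groups compared gave 6 higher in D_MgHCF vs DOX and 2 higher in D_MgHCF vs D_DXZ. The cause of these moves was not tested, apart from the shift of the typical gene under the 2 rescalings.

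Leaving out 1 library at a time gave 4 to 7 higher and 18 to 26 lower in DOX vs Unt, 1 to 4 and 15 to 27 in D_DXZ vs Unt, and 0 to 2 and 16 to 29 in D_MgHCF vs Unt. It gave 0 in D_DXZ vs DOX, 11 to 15 and 12 to 14 in D_MgHCF vs DOX, and 4 to 10 and 12 to 17 in D_MgHCF vs D_DXZ. Higher calls moved by over 1.5 times in D_DXZ vs Unt without Unt replicate 2 (1), and in D_MgHCF vs D_DXZ without D_DXZ replicate 2 (5) or replicate 3 (4). In D_MgHCF vs Unt they went from 0 to 1 without D_DXZ replicate 1 or D_MgHCF replicate 1, and to 2 without D_MgHCF replicate 3.

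Over all groups, replicate numbers showed no common pairing, since the deviations of same-numbered libraries correlated at -0.31 to 0.31, with 2 of 18 pairs over 0.1. Both of those pairs were of DOX with D_DXZ (0.31 for replicate 1 and 0.22 for replicate 3, beside 0.033 for replicate 2). Pairing within these 2 groups alone was not tested. With the replicate block, the counts were 5 and 22 in DOX vs Unt, 2 and 18 in D_DXZ vs Unt, 0 and 21 in D_MgHCF vs Unt, 0 and 0 in D_DXZ vs DOX, 13 and 13 in D_MgHCF vs DOX, and 8 and 14 in D_MgHCF vs D_DXZ. The block ended the call of Atm in DOX vs Unt (adjusted p = 0.075, limma) and of Ercc4 in D_MgHCF vs DOX (0.055), and it added that of Brca2 in D_MgHCF vs DOX (0.046).

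Of 920 values of single genes under the alternatives in DOX vs Unt, 785 kept their direction and side of the threshold and 24 changed sign, and in D_MgHCF vs DOX 805 and 29 of 920. The log2 fold changes that changed sign in DOX vs Unt under TPM scaling were those of Atm -0.85, Mre11a -0.92, Wrn -1.15, Xrcc5 -0.22, Xrcc6 -0.98, Xrcc4 -0.29, Parp2 -1.14 and Ercc1 -0.57. The log2 fold changes that changed sign in DOX vs Unt under scaling by summed reads were those of Atm -0.42, Mre11a -0.49, Wrn -0.65, Xrcc6 -0.56, Parp2 -0.70 and Ercc1 -0.16. The log2 fold changes that changed sign in DOX vs Unt under quantile normalization were those of Atr 0.33, Palb2 0.011, Rad51c 0.18, Rad52 0.071, Prkdc 0.25 and Xrcc6 -0.66. Leaving out 1 library at a time gave values for Atr from -0.12 to 0.041 in DOX vs Unt. The log2 fold changes that changed sign in D_MgHCF vs DOX under TPM scaling were those of Atm 0.78, Atr 0.13, Trp53bp1 0.92, Rif1 0.70, Rad52 0.81, Rbbp8 1.07, Ogg1 0.45, Xrcc1 1.10 and Ercc1 0.52. The log2 fold changes that changed sign in D_MgHCF vs DOX under scaling by summed reads were those of Atm 0.51, Trp53bp1 0.57, Rif1 0.39, Rad52 0.45, Rbbp8 0.77, Ogg1 0.20, Xrcc1 0.82 and Ercc1 0.26. The log2 fold changes that changed sign in D_MgHCF vs DOX under quantile normalization were those of Chek1 -0.12, Palb2 -0.38, Rad54l -0.31, Wrn -0.11 and Xrcc1 0.027. Leaving out 1 library at a time gave values for Trp53bp1 from -0.21 to 0.031, Palb2 from -0.093 to 0.14, Rad54l from -0.15 to 0.16, Rbbp8 from -0.23 to 0.013 and Xrcc1 from -0.35 to 0.088 in D_MgHCF vs DOX. None of the genes whose sign changed on leaving out a library was called in that comparison. Depth limits the low genes most, since 30 of the 480 member values rest on under 100 reads.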
